A study of Mus musculus with 2 samples.

Results

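The genes described here encode the constitutive proteasome, the protease complex that every nucleated cell uses to destroy proteins tagged with ubiquitin. They were taken by name, as all genes called Psma, Psmb, Psmc or Psmd with a number, without Psmb8, Psmb9 and Psmb10, which belong to the immunoproteasome. This gave 36 of the 27998 genes in the count tables, 16 of the core particle (Psma and Psmb) and 20 of the cap (Psmc and Psmd). A total of 34 reached 10 UMIs per 1000000 (counts per 1000000 UMIs, CPM) in the library where they were higher, and the other 2 are given separately.

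RNA was measured by droplet single-cell sequencing in lymphoid progenitors carrying integrin α4β7 (αLPs), sorted from untreated wild-type B6 mice as lineage-negative, CD45+, CD127+, Flt3-, α4β7+ and CD25- cells. There was 1 library from fetal liver of E14.5 embryos and 1 library from adult bone marrow. Both samples carry an age of 6 to 8 weeks in their labels, which cannot hold for the fetal one and was not used. How many animals were pooled is not given in the sources used here. Values are UMI counts, in which each captured RNA molecule is counted once, summed over cells and divided by the total.

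The proteasome consists of a barrel-shaped core, closed by rings of alpha subunits around rings of beta subunits, and of a cap that binds ubiquitin chains, removes them and threads the substrate into the barrel. The cap has a base, with a ring of ATPases that unfold substrates, and a lid that carries the deubiquitinase. Of the beta subunits, Psmb5, Psmb6 and Psmb7 hold the proteolytic sites. Lymphocytes can replace these by Psmb8, Psmb9 and Psmb10 in turn, which interferon induces and which change the peptides made for antigen presentation.

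The fetal liver library held 8583 kept cells with a median of 9294 UMIs, and the bone marrow library 7258 kept cells with a median of 3447.5 UMIs. A total of 19 barcodes occurred in both libraries, and without them the summed log2 ratio given in the next paragraph was 0.74. Of the genes sorted for, Ptprc (CD45), Il7r (CD127), Itga4 and Itgb7 were all detected in both libraries, at 47.9 to 178 CPM in fetal liver and 61.8 to 417 CPM in bone marrow. Of the genes sorted against, Flt3 stood at 1.45 and 1.20 CPM and Il2ra (CD25) at 1.08 CPM in fetal liver against 7.78 CPM in bone marrow (99 and 233 UMIs). The summed G2/M marker genes stood at 1404 CPM in fetal liver against 373 CPM in bone marrow, and the summed S phase genes at 843 and 413 CPM. The 7 B lineage marker genes summed to 139 and 33.7 CPM and the 11 myeloid, erythroid or mast cell genes to 263 and 211 CPM, with none at 0. The 5 hepatocyte genes summed to 9.46 and 6.81 CPM, with Alb and Ttr at 0 in bone marrow. Of 5 T cell genes only Cd4 and Cd8a were in the tables, and they summed to 11.2 and 1.34 CPM. Xist, the RNA of the silenced X chromosome, was counted 23018 times in fetal liver and 2 times in bone marrow, while Eif2s3y, Ddx3y and Uty, from the Y chromosome, were each counted 502 to 2027 times in fetal liver and 624 to 2235 times in bone marrow. The fetal library therefore mixes female and male RNA, and the adult one is almost wholly male. Age and organ cannot be told apart from the library. The part of the sex and of the other cell types in the results was not tested.

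The proteasome genes together took a larger share of the RNA in fetal liver. They held 748622 UMIs in fetal liver, or 8201 CPM (8182 to 8219). In bone marrow they held 146837 UMIs, or 4904 CPM (4879 to 4929). On the log2 scale fetal liver exceeded bone marrow by 0.74 (0.73 to 0.75), that is 1.67-fold, and this ratio is used throughout. These and all other intervals are exact 95% intervals for counting error. With 1 library per organ there was no replicate to give a spread, and no test between organs was made. Every one of the 34 genes at or above 10 CPM was higher in fetal liver, against 50.6% of all 6938 genes compared. At least 1.5-fold higher were 26 of the 34, against 19.2% of all genes, and at least 2-fold higher were 6, against 7.25%. None was at least 1.5-fold lower, against 23.2%. The median of the 34 log2 ratios was 0.79, while the median of all genes was 0.01, with quartiles of -0.54 and 0.46. The sums alone cannot tell more cells with a high level from more RNA per cell. Single cells were therefore also compared after thinning each to 2000 UMIs. The lower quartile, median and upper quartile of proteasome counts were then 12, 16 and 19 for fetal liver cells. For bone marrow cells they were 7, 9 and 12. The variance over the mean was 1.47 and 1.46. The shift was thus present in cells of low and middle level as well as in those of high level.

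The core and the cap differed between the organs by nearly the same factor. The core genes stood at 5870 CPM in fetal liver against 3502 CPM in bone marrow (log2 ratio 0.75), and the cap genes at 2331 and 1402 CPM (log2 ratio 0.73). The difference between these ratios was 0.01 (-0.01 to 0.03), and among cells of 3000 to 6000 UMIs it was 0.0862, the core being the higher. The cap sum includes the 3 base assembly chaperones Psmd5, Psmd9 and Psmd10, which leave the finished complex and had low ratios (0.19 to 0.37). A cap sum without them was not made. Since each of them lies below the ratio of the cap sum, leaving them out would raise that ratio. The slightly higher ratio of the core is therefore not read as an order of core and cap. Core genes supplied 71.6% of the proteasome UMIs of fetal liver and 71.4% of those of bone marrow.

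**Figure D1:**
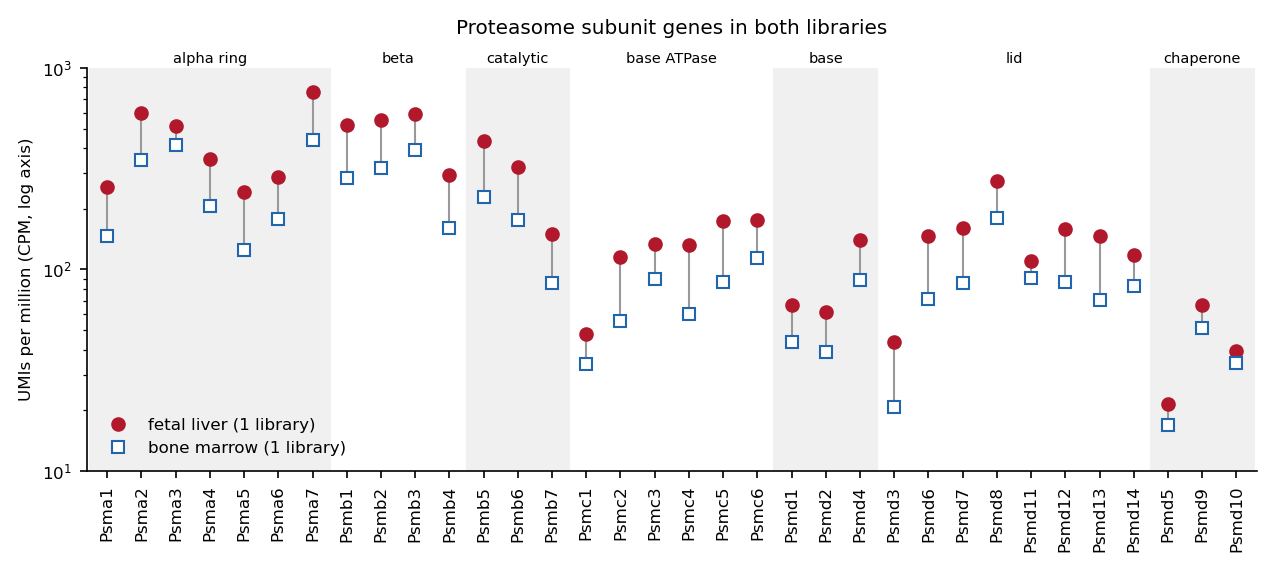
Level of each of the 34 genes in the fetal liver library (filled circles) and the bone marrow library (open squares), in CPM on a log axis, grouped by place in the complex. Every circle lies above its square, with the smallest gap at Psmd10 (39.4 against 34.4 CPM); levels of different genes are not compared, since the RNA was captured at its 3' end.

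The alpha ring, which forms the gate of the barrel, was higher in fetal liver in all 7 of its measured genes, 6 of them by at least 1.5-fold. Psma5 differed most within the ring, at 242 CPM (22112 UMIs) in fetal liver against 125 CPM (3730 UMIs) in bone marrow (log2 ratio 0.96, interval 0.91 to 1.01). Psma3 differed least, with 515 CPM (47027 UMIs) against 413 CPM (12375 UMIs; log2 ratio 0.32, interval 0.29 to 0.35). The intervals of these neighbours in the same ring lie far apart. The other alpha genes fell between them, Psma1, Psma2, Psma4 and Psma7 at 0.77 to 0.80 and Psma6 at 0.68. Psma8, which replaces Psma7 in the germ line, was nearly absent, with 138 UMIs (1.51 CPM) in fetal liver and 35 UMIs (1.17 CPM) in bone marrow (log2 ratio 0.37, with an interval of -0.17 to 0.95 that includes 0).

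Fetal liver exceeded bone marrow by at least 1.5-fold in each expressed gene of the beta ring. The structural members Psmb1, Psmb2 and Psmb4 stood at log2 ratios of 0.88, 0.80 and 0.88, and Psmb3 at 0.59, next to the 1.5-fold limit. Among the proteolytic subunits, Psmb5, the chymotrypsin-like one, had 39369 UMIs (431 CPM) in fetal liver and 6876 UMIs (230 CPM) in bone marrow (log2 ratio 0.91, interval 0.87 to 0.95). Psmb6, the caspase-like subunit, had 29268 UMIs (321 CPM) and 5263 UMIs (176 CPM) (log2 ratio 0.87, interval 0.82 to 0.91). Psmb7, the trypsin-like subunit, had 13724 UMIs (150 CPM) and 2558 UMIs (85.4 CPM) (log2 ratio 0.82, interval 0.75 to 0.88). Over all cells the 3 sites thus differed by about the same factor, with overlapping intervals. Among the low-cycling cells described below, Psmb7 stood apart at a log2 ratio of 1.53 (1.39 to 1.68). Psmb5 stood there at 0.96 (0.86 to 1.06) and Psmb6 at 0.89 (0.78 to 1.00). Psmb11, the subunit of thymic cortical epithelium, had 0 UMIs in either library, which allows up to 0.0329 CPM for the fetal organ and up to 0.10 CPM for bone marrow.

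The ATPase genes of the base ranged widely, from log2 ratios of 0.49 to 1.14. Psmc4 had the highest ratio of all 34 genes, at 133 CPM (12120 UMIs) in fetal liver against 60.1 CPM (1800 UMIs) in bone marrow (log2 ratio 1.14, interval 1.07 to 1.22). Psmc2 (10491 UMIs, 115 CPM, against 1663 UMIs, 55.5 CPM) and Psmc5 (174 against 86.3 CPM) were also at least 2-fold higher, at log2 ratios of 1.05 (0.97 to 1.12) and 1.01 (0.95 to 1.07). Psmc6 stood at 0.63, Psmc3 at 0.57 and Psmc1 at 0.49, the latter at 47.9 against 34.1 CPM. The ring thus split, since the intervals of Psmc2, Psmc4 and Psmc5 do not overlap those of the other ATPase genes. The remaining base genes were closer together. Psmd1 and Psmd2, the scaffolds of the base, stood at 0.61 and 0.66, and Psmd4, a receptor for ubiquitin chains, at 0.67.

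In the lid, fetal liver was higher by at least 1.5-fold in 6 of 8 genes and by at least 2-fold in 3, and the ratios ran from 0.27 to 1.07. Psmd3 was second among all the genes, with 3973 UMIs (43.5 CPM) against 619 UMIs (20.7 CPM) (log2 ratio 1.07, interval 0.95 to 1.20). Psmd13 had 13352 UMIs (146 CPM) against 2108 UMIs (70.4 CPM) (log2 ratio 1.05, interval 0.99 to 1.12). Psmd6, at 13368 UMIs (146 CPM) against 2148 UMIs (71.7 CPM), had a log2 ratio of 1.03 (0.96 to 1.10). These lid scaffolds and the ATPase genes Psmc4, Psmc2 and Psmc5 made up the 6 genes past 2-fold. Psmd7, Psmd12 and Psmd8 stood at 0.90, 0.87 and 0.61, and Psmd14, the deubiquitinase of the lid, at 0.51 (118 against 82.8 CPM). Psmd11, which braces the cap against the core, differed least in the lid, with 10017 UMIs (110 CPM) against 2719 UMIs (90.8 CPM) (log2 ratio 0.27, interval 0.21 to 0.33).

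The 3 chaperones that assemble the base and leave the finished complex were the group with the smallest difference, and 0 of 3 reached 1.5-fold. Psmd9 had 6050 UMIs (66.3 CPM) in fetal liver and 1531 UMIs (51.1 CPM) in bone marrow (log2 ratio 0.37, interval 0.29 to 0.46). Psmd5 had 1957 UMIs (21.4 CPM) and 505 UMIs (16.9 CPM) (log2 ratio 0.35, interval 0.20 to 0.49). Psmd10, also known as gankyrin and the one X-linked gene of the set, had 3595 UMIs (39.4 CPM) and 1031 UMIs (34.4 CPM) (log2 ratio 0.19, interval 0.09 to 0.29). Summed, the chaperones had a log2 ratio of 0.31, against 0.83 for the ATPases, 0.75 for the lid, 0.65 for the other base genes, 0.70 for the alpha ring, 0.76 for the structural beta genes and 0.88 for the proteolytic ones. Psmd5 was also the one gene that stood at the opposite sign under another choice of cells. It stood at -0.13 (-0.48 to 0.21) in cells of 3000 to 6000 UMIs and at -0.13 (-0.64 to 0.36) in low-cycling cells, and both intervals include 0.

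**Figure D2:**
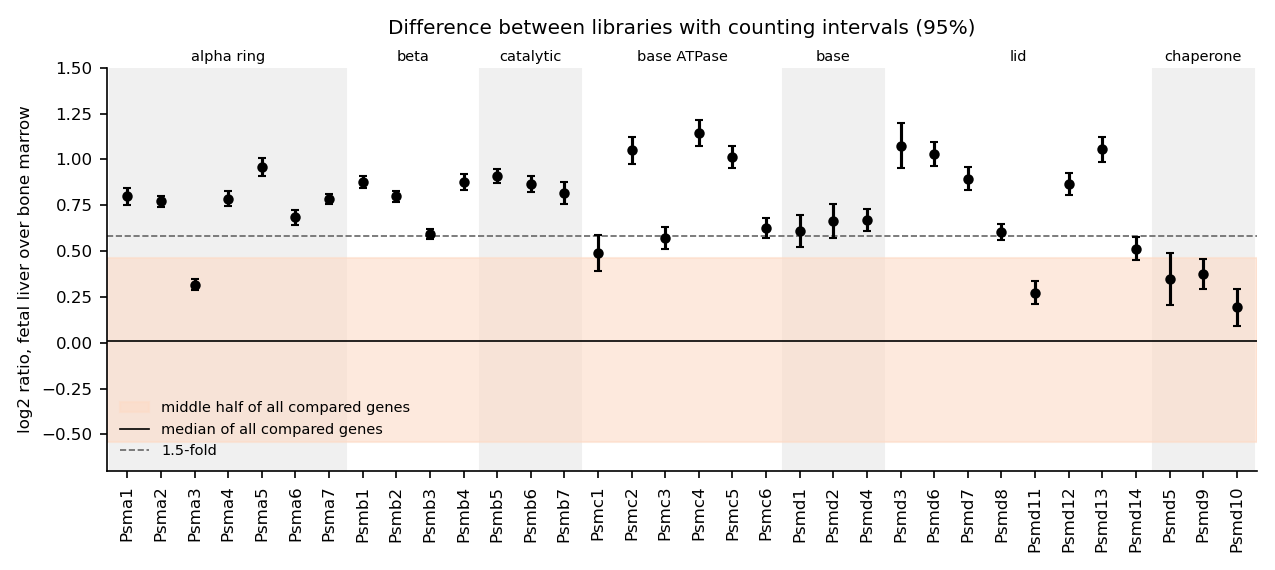
Log2 ratio between the libraries (fetal liver over bone marrow) for each of the 34 genes, with 95% counting intervals as bars; the shaded band spans the quartiles of all 6938 compared genes (-0.54 to 0.46), the solid line their median and the dashed line 1.5-fold. The chaperones, Psma3 and Psmd11 lie inside the band and the other genes above it.

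The limit of 1.5-fold ran through the set. Below it were Psmc3, Psmd14, Psmc1, Psmd9, Psmd5, Psma3, Psmd11 and Psmd10, and 10 genes lay within 0.1 log2 units of it. For 8 of the 36 genes the last 300 bases of the transcript match another gene at 98% or more over at least 90 bases, so that the counting could have split or shared their reads. These are Psma3, Psma4, Psma5, Psmb3, Psmb5, Psmd1, Psmd2 and Psmd11, and most of the matches are processed pseudogenes. Of the 9 matching genes 3 were in the count tables, Gm4950 for Psmb3, Gm21972 for Psmd1 and Gm5422 for Psmd2. The values of these 8 are uncertain to that extent, the low ratios of Psma3 and Psmd11 and the higher ones of Psma5 and Psmb5 included. The share of all genes with such a match was not taken, so 8 of 36 is not read as high or low.

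The genes lie on 16 chromosomes, and their promoters were read for sequence they share. The 250 bases upstream of the start, from RefSeq on GRCm38.p6, were the part searched and were at hand for 29 of the 36 genes. Those without an entry are Psma8, Psmb1, Psmb2, Psmb7, Psmc3, Psmd3 and Psmd7. Searched on both strands, the core of the antioxidant response element (TGACNNNGC), the site of the NFE2L1 and NFE2L2 factors known to raise proteasome genes when the proteasome is blocked, was found in 5 of the 29 promoters. These were Psmb5, Psmb6, Psmc6, Psmd12 and Psmd9, or 17.2%, against 11.5% of all genes with a promoter and 14.8% of those with at least 10 CPM. An ETS family site (CCGGAAG) was found in 9 promoters, or 31.0%, against 7.83% and 18.6%. A GC box (GGGCGG) was found in 58.6%, against 35.4% and 66.1%, and a CCAAT box in 41.4%, against 37.5% and 40.9%. An E box (CACGTG) was in 2 promoters, or 6.90%, against 6.86% and 10.5%. An AP-1 site (TGANTCA) was in 1, or 3.45%, against 7.82% and 4.59%. Overlaps between motifs were not removed, and a match is a description of the letters only.

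The promoters of a pair of proteolytic subunit genes with the antioxidant response element core are shown, Psmb5 (chr14:54618023-54618245, minus strand) and Psmb6 (chr11:70525107-70525356, plus strand). Next to them stand the genes with the highest and the lowest ratio among the 9 with an ETS site, Psmc2 (chr5:21785025-21785274, plus strand) and Psmd11 (chr11:80428365-80428614, plus strand). All are GRCm38.p6, read 5′ to 3′ towards the gene and ending before the transcript, with the matched letters of either strand in capitals.
Psmb5: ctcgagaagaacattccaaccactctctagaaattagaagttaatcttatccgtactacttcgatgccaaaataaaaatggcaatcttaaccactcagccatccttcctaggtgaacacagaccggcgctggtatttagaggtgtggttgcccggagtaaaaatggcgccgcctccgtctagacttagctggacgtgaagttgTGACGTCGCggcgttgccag
Psmb6: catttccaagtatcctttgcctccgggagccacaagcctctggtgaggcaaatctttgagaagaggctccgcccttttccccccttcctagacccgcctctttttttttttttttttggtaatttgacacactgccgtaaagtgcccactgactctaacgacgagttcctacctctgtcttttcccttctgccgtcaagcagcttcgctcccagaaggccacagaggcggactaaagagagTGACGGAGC
Psmc2: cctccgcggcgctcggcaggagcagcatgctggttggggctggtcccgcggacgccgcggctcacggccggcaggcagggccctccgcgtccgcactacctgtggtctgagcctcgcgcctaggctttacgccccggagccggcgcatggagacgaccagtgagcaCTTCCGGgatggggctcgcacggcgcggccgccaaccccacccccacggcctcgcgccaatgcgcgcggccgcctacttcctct
Psmd11: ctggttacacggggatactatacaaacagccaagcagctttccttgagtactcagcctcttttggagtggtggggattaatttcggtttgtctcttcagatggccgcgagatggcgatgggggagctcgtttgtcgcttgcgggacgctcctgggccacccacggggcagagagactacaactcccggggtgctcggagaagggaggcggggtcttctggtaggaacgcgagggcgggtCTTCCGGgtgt
Counted to the RefSeq start, the matches begin 47 bases before it in Psmb5, 9 in Psmb6, 84 in Psmc2 and 11 in Psmd11. The Psmb5 sequence is printed only up to the GENCODE start of the gene, which lies upstream of the RefSeq start, and so has 223 letters instead of 250. Psmc2 and Psmd11 hold the same ETS letters and stood at log2 ratios of 1.05 and 0.27. Over the genes compared, the median log2 ratio was 0.87 for the 5 with the antioxidant response element core and 0.68 for the 23 without it. It was 0.67 for the 9 with an ETS site and 0.79 for the 19 without one. For the CCAAT box it was 0.67 in 11 genes with it and 0.87 in 17 without it. For the GC box it was 0.77 in 17 genes with it and 0.68 in 11 without it. The E box had 0.58 in 2 genes against 0.73 in 26, and the AP-1 site 0.37 in 1 gene against 0.77 in 27. The ranges with and without a motif overlap in each case. Whether any motif bears on the ratios was not tested.

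Other genes of the ubiquitin and proteasome pathway did not all share the direction of the subunits. The list held regulators, assembly factors, ubiquitin genes and shuttle proteins, and 31 of its genes were compared. Of these 19 were higher in fetal liver, against 50.6% of all genes, and 10 by at least 1.5-fold, against 19.2%. At least 1.5-fold lower were 4, against 23.2%, and the median log2 ratio was 0.21. Pomp, the chaperone that matures the core, stood at 528 CPM in fetal liver against 291 CPM in bone marrow (log2 ratio 0.86), and Psmg3, which assembles the alpha ring, at 46.9 and 25.7 CPM (log2 ratio 0.87). The related Psmg1 stood at 44.4 and 24.7 CPM (log2 ratio 0.84), Psmg2 at a log2 ratio of 0.74 and Psmg4 at 0.27. Of these core assembly factors all but Psmg4 thus had ratios near those of the core genes, whereas the base chaperones Psmd5, Psmd9 and Psmd10 did not. Of the ubiquitin genes, Ubb was lower in fetal liver, at a log2 ratio of -0.83, while Rps27a, a fusion with a ribosomal protein, stood at 0.21. Midn, whose product carries nuclear proteins to the proteasome without ubiquitin, stood at 31.7 and 76.4 CPM (log2 ratio -1.27). Whether near-identical copies took reads of these ubiquitin genes was not examined. Nfe2l1 and Nfe2l2 stood at 17.3 against 27.3 CPM and at 29.7 against 33.1 CPM, log2 ratios of -0.66 and -0.16 over all cells. Among G2/M cells alone these ratios were -0.10 (-0.39 to 0.21) and 0.03 (-0.20 to 0.27). Among low-cycling cells alone they were -0.49 (-0.85 to -0.14) and -0.11 (-0.42 to 0.18). Whether either factor bears on the subunit genes was not tested. The activator genes Psme1 and Psme2, whose products form 1 ring that can take the place of the cap, differed from each other, at log2 ratios of 0.07 and 0.84.

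The proteolytic genes and their immunoproteasome partners did not keep a constant balance. Psmb8, the partner of Psmb5, had 604 CPM (55121 UMIs) in fetal liver and 558 CPM (16695 UMIs) in bone marrow (log2 ratio 0.11, interval 0.09 to 0.14). Psmb9, the partner of Psmb6, had 154 CPM (14074 UMIs) and 194 CPM (5806 UMIs) (log2 ratio -0.33, interval -0.38 to -0.29). Psmb10, the partner of Psmb7, had 285 CPM (26049 UMIs) and 142 CPM (4265 UMIs) (log2 ratio 1.00, interval 0.96 to 1.05). Summed, the partners stood at 1043 and 894 CPM (log2 ratio 0.22), against 0.88 for the constitutive subunits at 902 and 491 CPM. The difference of -0.66 between these ratios was -0.34 in cells of 3000 to 6000 UMIs and -1.29 in cells without a UMI on any of 7 interferon marker genes (Gbp2, Gbp3, Gbp7, Iigp1, Igtp, Irgm1, Ifi47). The summed level of those markers was 231 CPM in fetal liver against 99.6 CPM in bone marrow.

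Cells with a UMI on at least 2 of these interferon markers showed which of the genes move with the programme. In fetal liver 2511 cells passed this gate and 4199 had none of the markers. The partner genes stood at 1730 CPM in the first and 666 CPM in the second (log2 ratio 1.38, interval 1.36 to 1.40), while Psmb5, Psmb6 and Psmb7 summed to 914 and 904 CPM (log2 ratio 0.02, interval -0.01 to 0.04). Psmb10 led with a log2 ratio of 2.02, ahead of Psmb9 at 1.93 and Psmb8 at 0.96. Of the constitutive genes 24 of 34 were higher in gated cells, against 46.7% of all genes, and 0 of 34 reached 1.5-fold, against 4.5%. Psma5 was highest, at 291 against 216 CPM and a log2 ratio of 0.43, and Psmb7 lowest, at 128 against 167 CPM and -0.38. Psmb7 is the subunit that Psmb10 displaces in the protein complex, and whether this bears on its RNA was not tested. The core genes stood at 0.19 and the cap genes at 0.05. Gated and marker-free cells had medians of 9824 and 8933 UMIs.

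The gated cells of fetal liver were in large part NK or ILC1-gated, 1116 of 2511, so the values were also taken within lineage gates, defined in the same way by at least 2 marker genes. Among NK or ILC1-gated cells the partners stood at 1908 CPM with the interferon gate and 793 CPM without a marker, and the constitutive subunits at 908 and 871 CPM. Among ILC2 progenitor-gated cells the partners stood at 1620 and 556 CPM and the constitutive subunits at 976 and 997 CPM. The pattern of high partners beside level constitutive genes was therefore present within both gates. Psmb7 differed by gate, at 117 and 126 CPM among NK or ILC1-gated cells and at 165 and 232 CPM among ILC2 progenitor-gated cells. In bone marrow 398 cells passed the interferon gate and 5133 had no marker. The partners stood there at 1023 and 851 CPM (log2 ratio 0.27, interval 0.21 to 0.33), and the constitutive subunits at 550 and 472 CPM (log2 ratio 0.22, interval 0.14 to 0.30). Of the constitutive genes 30 of 34 were higher, against 51.6% of all genes, and 1 of 34 by at least 1.5-fold, against 7.44%, which was Psmd3 at 0.64. The bone marrow cells of the gate were deeper, with a median of 5578 against 3141 UMIs.

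**Figure D3:**
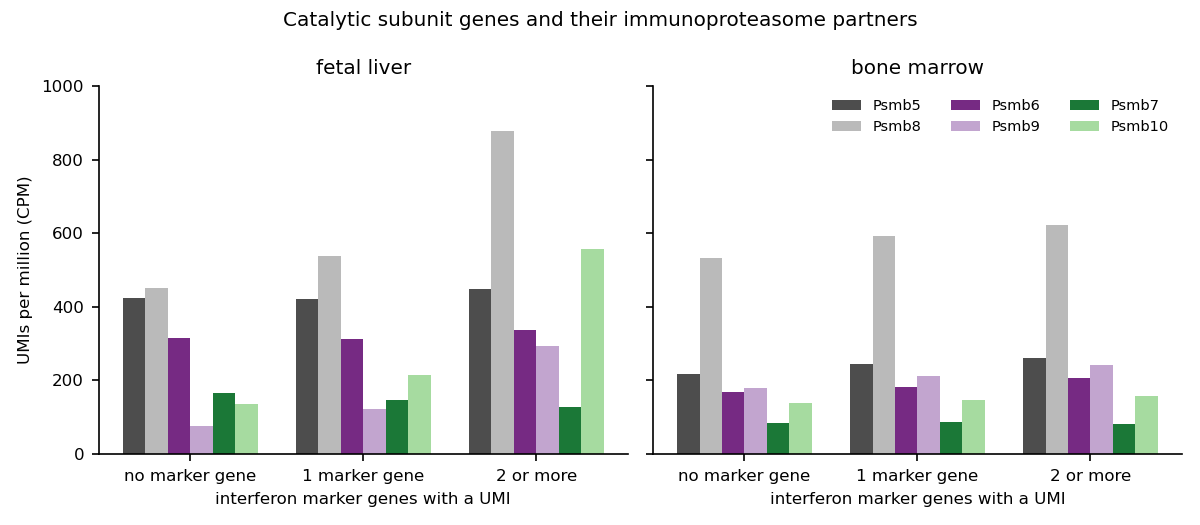
Level of the proteolytic genes Psmb5, Psmb6 and Psmb7 (dark bars) and of their partners Psmb8, Psmb9 and Psmb10 (light bars of the same hue), in CPM, by the number of interferon marker genes with a UMI in the cell, for fetal liver (left) and bone marrow (right). In fetal liver the light bars reach 879, 293 and 558 CPM in the cells with 2 or more markers while of the dark bars Psmb5 and Psmb6 stay near their height in marker-free cells and Psmb7 is lower (128 against 167 CPM); in bone marrow Psmb9 differs most, at 243 against 179 CPM.

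Dividing cells held a larger share of proteasome RNA than low-cycling cells in both organs. Cells with a UMI on at least 2 of 10 G2/M genes were compared with low-cycling cells, which had none of the G2/M genes and none of 10 S phase genes. In fetal liver 5056 G2/M cells stood at 8504 CPM, 1778 S phase cells at 7757 CPM, 1013 intermediate cells at 6989 CPM and 736 low-cycling cells at 6761 CPM. In bone marrow 686 G2/M cells stood at 6269 CPM, 776 S phase cells at 5642 CPM, 1779 intermediate cells at 4559 CPM and 4017 low-cycling cells at 4179 CPM. The order of the gates was the same in both libraries, and the highest gate of bone marrow lay below the lowest of fetal liver. The log2 ratio of G2/M over low-cycling cells was 0.33 (0.31 to 0.35) in fetal liver and 0.59 (0.57 to 0.60) in bone marrow.

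Gene by gene, 30 of 34 were higher in the G2/M cells of fetal liver, against 40.9% of all genes, and 5 of 34 by at least 1.5-fold, against 14.7%. In bone marrow 33 of 34 were higher, against 46.8%, and 19 of 34 by at least 1.5-fold, against 19.5%. The ATPase genes led among the roles in bone marrow, with a summed log2 ratio of 0.85, and Psmc4 was the highest gene at 1.03 (91.8 against 45.1 CPM), followed by Psmd13 at 1.00 (107 against 53.2 CPM). In fetal liver Psmd5 was highest at 0.91 (22.6 against 12.0 CPM), on few UMIs, with an interval of 0.48 to 1.38, and Psmd1 followed at 0.77 (72.4 against 42.5 CPM). Psmd8 stood at the low end in both, at -0.20 in fetal liver and -0.05 in bone marrow, as did the chaperone genes Psmd9 (-0.25 and 0.09) and Psmd10 (-0.24 and 0.09).

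G2/M cells were also deeper, with medians of 11805 against 4656 UMIs in fetal liver and 7736 against 2738 in bone marrow. Among cells of 3000 to 6000 UMIs the log2 ratio of G2/M over low-cycling cells was 0.13 (0.09 to 0.16) in fetal liver and 0.39 (0.35 to 0.44) in bone marrow. In this window 23 of 34 genes were higher in fetal liver, against 46.9%, and 1 of 34 by at least 1.5-fold, against 13.3%. In bone marrow 30 of 34 were higher, against 51.9%, and 9 of 34 by at least 1.5-fold, against 20.1%. The gap between dividing and low-cycling cells was thus smaller in this window in both organs, and neither counting interval includes 0. Inside the window G2/M cells were still the deeper ones, with medians of 4944.5 against 4458 UMIs in fetal liver and 4849.5 against 3841.5 in bone marrow.

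**Figure D4:**
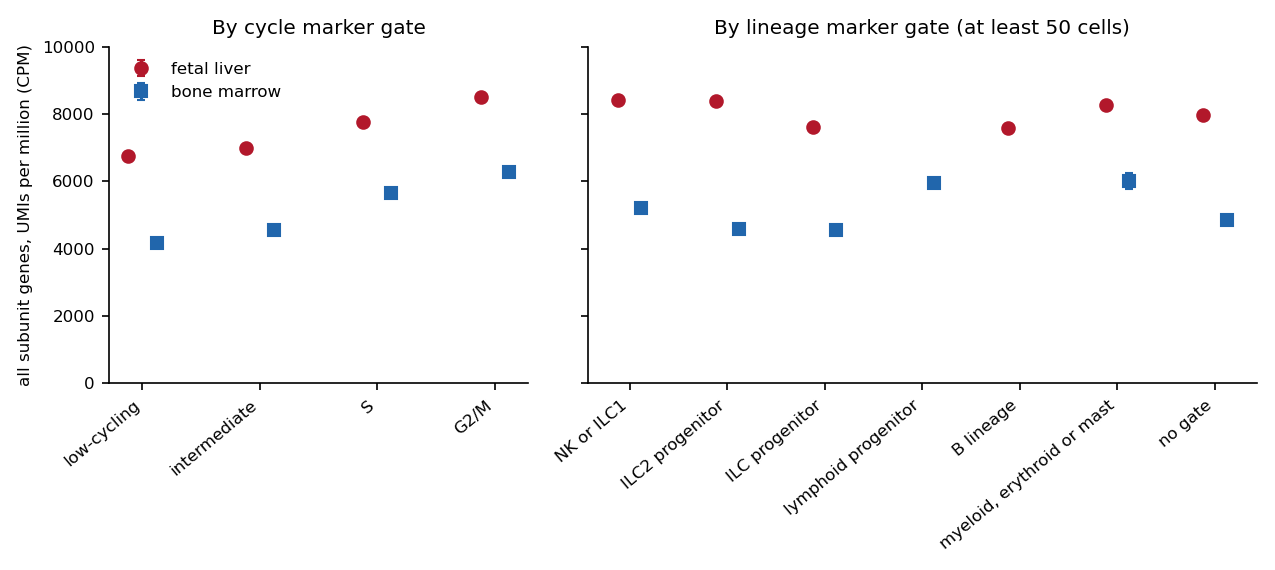
Summed level of the proteasome genes, in CPM, in cells grouped by cell cycle markers (left) and by lineage markers (right, groups of at least 50 cells), for fetal liver (circles) and bone marrow (squares), with 95% counting intervals where wider than the symbol. The level climbs from low-cycling to G2/M cells in both libraries, from 6761 to 8504 and from 4179 to 6269 CPM, and the circles lie above the squares in each gate that both libraries hold.

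The difference between the organs was present inside each cycle gate. Among low-cycling cells alone fetal liver was higher by a log2 ratio of 0.69 (0.67 to 0.72), with 33 of 34 genes higher, against 54.1% of all genes, and 24 of 34 by at least 1.5-fold, against 20.8%. Among G2/M cells alone it was 0.44 (0.42 to 0.46), with 34 of 34 higher, against 48.2%, and 8 of 34 by at least 1.5-fold, against 11.3%. Psmb7 had the highest ratio among low-cycling cells, at 206 CPM in fetal liver against 71.2 CPM in bone marrow and a log2 ratio of 1.53 (1.39 to 1.68). The size of this gap depended on the mix of cells. Low-cycling cells of no lineage gate stood at 255 CPM of Psmb7 in fetal liver against 70.3 CPM in bone marrow. Low-cycling NK or ILC1-gated cells stood at 91.0 against 46.1 CPM. Psmd3 had the highest ratio among G2/M cells, at 45.3 and 24.7 CPM and 0.88. The lowest were Psmd5 among low-cycling cells, at -0.13 with an interval of -0.64 to 0.36, and Psmc1 among G2/M cells, at 0.03.

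The share of proteasome RNA also differed with the depth of a cell. In fetal liver it went from 6098 CPM in cells of 2000 to 3000 UMIs to 8700 CPM in cells of 15000 UMIs and over. In bone marrow it went from 3501 CPM in cells of 1000 to 2000 UMIs to 6932 CPM in the deepest, a range of fewer than 50 cells. Range by range, fetal liver was higher in all 6 ranges from 1000 to 15000 UMIs, by log2 ratios of 0.98 in the shallowest, with 111 fetal liver cells, and 0.40 in the range of 9000 to 15000 UMIs. In cells of 3000 to 6000 UMIs the log2 ratio was 0.64 (0.62 to 0.66), with 33 of 34 genes higher, against 53.1%, and 20 of 34 by at least 1.5-fold, against 19.5%. With every cell thinned to 2000 UMIs, fetal liver cells held a mean of 15.8 proteasome UMIs, with quartiles of 12 and 19, and bone marrow cells a mean of 9.37, with quartiles of 7 and 12. These came from a mean of 11.2 different genes of the set in fetal liver and 7.52 in bone marrow. The thinning left out 131 and 1335 shallower cells, and 0 of the remaining cells in either library lacked a proteasome UMI. Without thinning the medians per cell were 73 and 15 UMIs. The quartile ranges meet at 12 UMIs, so single cells of the libraries overlapped while their averages differed.

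**Figure D5:**
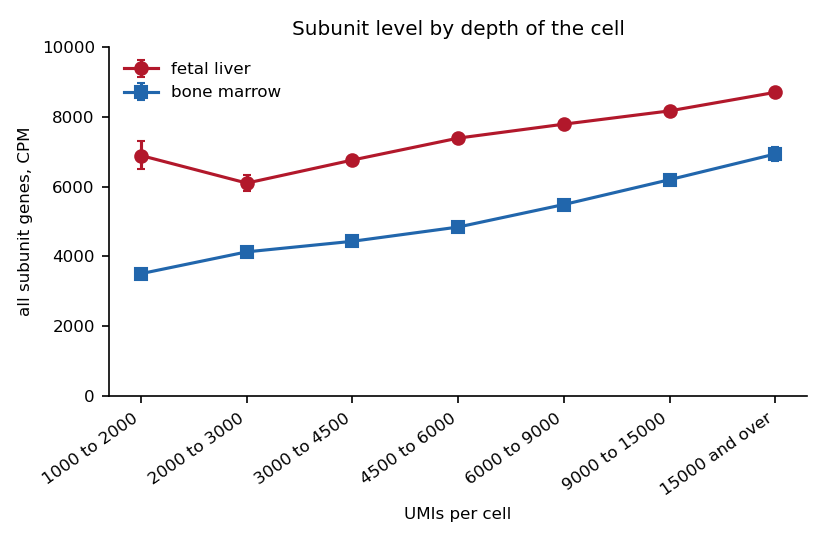
Summed level of the proteasome genes, in CPM, in cells grouped by their number of UMIs, for fetal liver (circles) and bone marrow (squares), with 95% counting intervals. Both lines climb towards deeper cells, to 8700 and 6932 CPM, apart from the shallowest fetal liver range of 111 cells at 6889 CPM, and fetal liver lies above bone marrow in each range. The deepest bone marrow range holds fewer than 50 cells.

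Across lineage gates the summed level was nearly even in fetal liver. NK or ILC1-gated cells stood at 8421 CPM, ILC2 progenitor-gated cells at 8394 CPM, myeloid, erythroid or mast cells at 8277 CPM, ILC progenitor-gated cells at 7626 CPM and B lineage cells at 7594 CPM. The intervals of NK or ILC1-gated cells (8382 to 8460 CPM) and ILC2 progenitor-gated cells (8335 to 8454 CPM) overlap, as do those of ILC progenitor-gated and B lineage cells. Bone marrow was less even. Myeloid, erythroid or mast cells stood at 6012 CPM on 52 cells, lymphoid progenitor-gated cells at 5961 CPM, NK or ILC1-gated cells at 5199 CPM, ILC2 progenitor-gated cells at 4586 CPM and ILC progenitor-gated cells at 4568 CPM. The first and the last pairs of this order overlap in their intervals. Set against bone marrow, fetal liver was higher by 0.87 for the ILC2 progenitor gate, 0.74 for the ILC progenitor gate, 0.70 for the NK or ILC1 gate and 0.46 for the myeloid gate on the log2 scale. In the ILC2 progenitor gate the median depth was 11195 UMIs in fetal liver against 2694 in bone marrow, the largest ratio of depths among these gates. The cells of a gate also differed in cycle state between the libraries. Among G2/M cells alone the log2 ratio was 0.55 for the ILC2 progenitor gate and 0.40 for the NK or ILC1 gate. Among low-cycling cells alone it was 0.56 for the ILC progenitor gate and 0.58 for the NK or ILC1 gate. These values are lower than those over all cells of the same gate.

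Some single genes varied more between lineage gates than the sum. In fetal liver the fold between the highest and the lowest of 5 gates had a median of 1.22 over the 34 genes and a range of 1.06 to 1.77. In bone marrow, also over 5 gates, the median was 1.53 and the range 1.15 to 3.03. The gates are not the same, since the B lineage gate enters for fetal liver and the lymphoid progenitor gate for bone marrow, and the counts of bone marrow are smaller. Psmb7 was near the top in both and had the same highest and lowest gate. It was highest in ILC2 progenitor-gated cells, at 212 CPM in fetal liver against 118 CPM in bone marrow, and lowest in NK or ILC1-gated cells, at 119 and 55.2 CPM. Psmb5 and Psmb6, the other proteolytic genes, varied by 1.22-fold and 1.11-fold in fetal liver and by 1.47-fold and 1.46-fold in bone marrow. Psmd7 was highest in myeloid, erythroid or mast cells of both libraries, at 231 and 147 CPM. It was lowest in ILC progenitor-gated cells of fetal liver, at 142 CPM, and in ILC2 progenitor-gated cells of bone marrow, at 71.5 CPM. Psmd5 had the widest spread in bone marrow, from 13 CPM in ILC2 progenitor-gated cells (76 UMIs) to 39.4 CPM in myeloid cells, the latter on 15 UMIs with an interval of 22.0 to 64.9 CPM, and in fetal liver it was again highest in myeloid cells, at 30.2 CPM. Psma6 ranged from 139 CPM in ILC2 progenitor-gated to 303 CPM in lymphoid progenitor-gated cells of bone marrow. The immunoproteasome partners spread further in fetal liver, Psmb10 by 5.30-fold from 87.6 CPM in B lineage cells to 465 CPM in NK or ILC1-gated cells.

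Psmb7 was among the 4 genes of the set that were lower in the G2/M cells of fetal liver, with Psmd8, Psmd9 and Psmd10, and had the lowest ratio. It stood at 149 CPM in G2/M cells and 206 CPM in low-cycling cells (log2 ratio -0.47, interval -0.57 to -0.36), while in bone marrow it stood at 106 and 71.2 CPM (log2 ratio 0.58, interval 0.42 to 0.73). The fetal direction did not hold in every group of cells. Psmb7 was lower in G2/M cells among cells of no gate, at 156 against 255 CPM. It was higher in G2/M cells among ILC progenitor-gated cells, at 150 against 108 CPM and a log2 ratio of 0.48 (0.07 to 0.91). Among NK or ILC1-gated cells it stood at 125 against 91.0 CPM, with an interval of -0.01 to 0.96 that includes 0. In bone marrow it was higher in G2/M cells within the NK or ILC1 gate, the ILC2 progenitor gate and the cells of no gate, at log2 ratios of 0.71, 0.76 and 0.60. The difference between the organs in this response was not tested.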

How the data were processed

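The authors deposited raw, unnormalized UMI counts for each gene and barcode. Per the labels' protocols, cells were sorted, libraries made with a 10x Chromium 3' kit, UMIs counted and barcodes without a cell removed. Software 3.0.1 wrote the matrices, per the file headers. The submitters' processing notes name mm10 and Seurat 4.0, with no role. Aligner and annotation: not given in the sources used here. Files of gene names and barcodes, as deposited, hold no measurement (other).

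Cells with at least 500 genes and at most 10% mitochondrial UMIs were kept, 8583 of 8946 in fetal liver (91285900 UMIs) and 7258 of 7367 in bone marrow (29941097 UMIs). Counts were summed over cells and scaled to CPM, and ratios got exact conditional 95% intervals, which cover counting error only. A count of 0 was bounded at 3 counts. A gene was compared if it reached 10 CPM in the higher group. No doublet caller was run; cells passing more than 1 lineage gate were kept apart, and 1 alternative left out the 6% of cells with most UMIs. A marker gate needs a UMI on 2 genes of its list. Full values are given for the 5 largest and 5 smallest log2 ratios, the proteolytic genes and genes under 10 CPM, and the pathway genes named are the 4 with the largest absolute ratios plus Pomp, Psme1, Psme2, Nfe2l1 and Nfe2l2; further genes were chosen after their values were seen. A lineage gate and some pathway genes are not reported here. The members, lists and motifs were chosen with earlier results of these data known. The interval was tested on simulated counts that hold counting error only, so that test cannot show how it fares with the spread between cells or animals. Python 3.11.15, scipy 1.17.1, R 4.3.3, edgeR 4.0.16 (TMM scaling only) and blastn 2.17.0 were used; coordinates are from GENCODE M21 and promoters from RefSeq.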

Additional observations from a re-analysis of the deposited data

Results flagged for a closer look

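Psmb7 drew attention because its counting intervals lay on opposite sides of 0 in the organs. The log2 ratio of G2/M over low-cycling cells was -0.465 in fetal liver and 0.577 in bone marrow. Psmd7 did so between interferon-gated and marker-free cells, at -0.0696 in the fetal and 0.204 in the adult organ, and its intervals were -0.12 to -0.01 and 0.00 to 0.40. Psma6 did so in the same comparison, at -0.049 (-0.09 to -0.01) in fetal liver and 0.517 (0.39 to 0.64) in bone marrow. The difference between the organs was not tested in any of the 3 genes, since each organ has 1 library.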

How the results depend on the processing

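The direction of the summed log2 ratio (0.74) was the same under 12 alternatives, from 0.64 to 0.90. It was 0.88 with TMM factors, 0.90 with median-ratio factors, 0.71 with totals without ribosomal and mitochondrial genes, 0.82 with each cell weighing the same, 0.69 in cells with at least 1000 genes and at most 5% mitochondrial UMIs, 0.80 without the 6% of cells with most UMIs, 0.64 in cells of 3000 to 6000 UMIs, 0.76 thinned to 2000 UMIs, 0.69 in low-cycling cells, 0.68 with shared lineage gates weighing the same, and 0.65 in low-cycling cells of 3000 to 6000 UMIs, chosen after seeing the data. TMM and median-ratio factors moved all genes by 0.14 and 0.16. The 26 genes past 1.5-fold became 6 at 2-fold and 20 to 29 under the other alternatives. Among G2/M cells alone, which were not one of these alternatives, the summed ratio was 0.44 and 8 genes passed 1.5-fold. Core minus cap became 0.0387 with equal cells and 0.0862 in the depth window. G2/M over low-cycling cells in fetal liver (0.33) became 0.13 in the depth window and 0.22 thinned. In bone marrow (0.59) it became 0.61 with equal cells, 0.52 under the stricter cell filter, 0.51 without the deepest cells, 0.39 in the depth window and 0.47 thinned. Partner minus constitutive ratios (-0.66) became -0.57 with equal cells, -0.60 without the deepest cells, -0.34 in the depth window, -0.52 thinned and -1.29 in cells without an interferon marker. Psmd5 turned to -0.13 in the depth window, in low-cycling cells and in both together. Its counting intervals in the depth window and in low-cycling cells include 0. Of single genes, 371 of 374 values were above 0. The causes were not tested. No paired analysis was possible because each organ has 1 library. Depth and sex differ between the libraries, and the counting intervals leave out the spread between animals.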
